A study of Mus musculus with 20 samples.

Results

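Glycolysis and the metabolic genes that hypoxia-inducible factors (HIFs) induce were examined as a set of 34 genes of the 30746 lines in the deposited lung expression table. The set was listed by gene name and holds glucose uptake and the hexokinases (3 genes), upper glycolysis with its regulators (9), lower glycolysis (6), the fate of pyruvate and lactate (3), mitochondrial and mitophagy targets of HIF (3), and hydroxylases, carbonic anhydrases and other HIF targets (10). Every one of the 34 names was found in the table and all 34 passed the filter on low values, so they were tested among 21658 genes. RNA was sequenced from whole lungs of C57BL/6 mice (WT) and of mice carrying a targeted deletion of the gene for vasoactive intestinal peptide (VIPKO), a neuropeptide that relaxes airways and vessels. Animals breathed room air (normoxia, 21% O2) or 10% O2 for 4 weeks (hypoxia), which gave 6 libraries of WT in normoxia, 5 of WT in hypoxia, 4 of VIPKO in normoxia and 5 of VIPKO in hypoxia. The study asked how the loss of the peptide and low oxygen act on a lung that develops pulmonary hypertension. VIPKO is called a knockout in the titles and a knockdown in the genotype field, and all 20 libraries carry the same batch label. The labels used here give no age or sex. Since nothing in the labels says that libraries of a group came from separate animals, p-values measure the spread between libraries, which may be partly technical.

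Glycolysis splits glucose into pyruvate and makes ATP without oxygen, and lactate dehydrogenase then turns pyruvate into lactate so that the pathway can go on. When oxygen is low, HIF alpha subunits escape the prolyl hydroxylases that mark them for degradation, pair with ARNT and bind short sequences in the promoters of their targets, the hypoxia response elements. These targets include the glucose transporter GLUT1, most glycolytic enzymes, the kinase PDK1 that blocks pyruvate dehydrogenase, and the mitophagy receptors BNIP3 and BNIP3L. In the lung, the same factors take part in the remodelling of pulmonary arteries under chronic hypoxia.

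The core letters of the hypoxia response element, ACGTG and GCGTG, were looked for on both strands in the 250 bases before each transcription start listed by RefSeq (GRCm38.p6, the mm10 build), counting overlapping matches. Of the 34 genes, 32 had an entry, with 49 windows between them. At least 1 of these motifs was found in any window for 28 of the 32 genes (87.5%), against 41.5% of all 27025 genes with an entry. By window, either motif was found in 75.5% of the set and in 38.6% of all 32851 windows. ACGTG alone was found in 44.9% of the windows of the set and in 16.6% of all windows. The set was listed as glycolysis genes and HIF targets, so a higher share is no independent result. Among the 19 genes with an entry that rose in WT hypoxia (below), 17 (89.5%) held a motif, and so did 11 of the 13 (84.6%) that did not pass the test. The other genes with an entry, Tpi1, Gpi1, Eno2 and Car12, held none, and Tpi1 and Gpi1 rose all the same. The stretches of 5 genes that rose are shown here to let the motifs be seen in place; each runs 5′ to 3′ on the gene's strand, ends at or before the transcription start and leaves out annotated exons, and capitals mark the motif letters (CACGT and CACGC are the motifs on the opposite strand).
Ldha, chr7:46845554-46845803, + strand: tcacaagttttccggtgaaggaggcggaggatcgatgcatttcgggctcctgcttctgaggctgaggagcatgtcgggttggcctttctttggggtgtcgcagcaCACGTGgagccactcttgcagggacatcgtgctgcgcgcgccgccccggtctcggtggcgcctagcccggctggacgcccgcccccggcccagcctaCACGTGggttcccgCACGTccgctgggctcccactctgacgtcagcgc
Hk2, chr6:82774455-82774704, - strand: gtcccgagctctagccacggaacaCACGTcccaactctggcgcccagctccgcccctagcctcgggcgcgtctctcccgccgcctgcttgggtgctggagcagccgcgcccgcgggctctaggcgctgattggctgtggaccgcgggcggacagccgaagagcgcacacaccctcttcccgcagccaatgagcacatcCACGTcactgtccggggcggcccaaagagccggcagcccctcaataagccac
Pgam1, chr19:41911621-41911870, + strand: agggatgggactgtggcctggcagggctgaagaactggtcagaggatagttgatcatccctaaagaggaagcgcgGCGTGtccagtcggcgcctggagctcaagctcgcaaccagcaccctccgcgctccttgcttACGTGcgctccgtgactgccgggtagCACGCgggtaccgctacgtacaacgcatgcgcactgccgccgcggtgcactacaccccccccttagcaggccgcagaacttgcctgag
Bnip3, chr7:138909520-138909756, - strand: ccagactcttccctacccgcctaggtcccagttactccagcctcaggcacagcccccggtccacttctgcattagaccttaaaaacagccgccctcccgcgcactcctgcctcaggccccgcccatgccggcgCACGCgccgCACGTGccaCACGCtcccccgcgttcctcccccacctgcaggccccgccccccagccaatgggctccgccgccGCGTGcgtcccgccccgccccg
Ddit4, chr10:59951835-59952020, - strand: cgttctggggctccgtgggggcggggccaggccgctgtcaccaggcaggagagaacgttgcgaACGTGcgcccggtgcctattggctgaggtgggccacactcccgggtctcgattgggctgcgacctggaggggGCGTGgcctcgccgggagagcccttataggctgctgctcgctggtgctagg
The Ldha stretch lies before an inner start of the gene, downstream of the outermost one. It held 5 matches of ACGTG counted over both strands, because CACGTG reads the same on each, and Bnip3 held 2 of ACGTG and 3 of GCGTG. Hk2 had 2 matches of ACGTG, Pgam1 had 1 of ACGTG and 2 of GCGTG, and Ddit4 had 1 of each. A match is a description of the letters and was not tested for binding.

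Estimated depth ran from 4.96 M reads in WT hypoxia 4 to 56.7 M in WT normoxia 4 (median 17.8 M). Markers of the whole lung were present in every group, since none of the 7 alveolar type 2, 6 alveolar type 1 and 9 capillary genes had a group mean under 10. The signal of Vip, the deleted gene, did not separate the genotypes: its median was 3.64 in WT normoxia, 2.37 in WT hypoxia, 4.79 in VIPKO normoxia and 2.17 in VIPKO hypoxia, near the level of a few reads. The highest values were 105.9 in the library labelled VIPKO hypoxia 4 and 93.0 in WT normoxia 5, so every genotype contrast below rests on the labels. WT hypoxia 5 stood apart through skeletal muscle RNA, with a summed signal of 39373 over 15 markers against 1361 in the next library. All 15 were highest in WT hypoxia 5. It was also the highest WT hypoxia library for summed adipocyte markers (20499, group median 5823) and cardiac muscle markers (15397, group median 3450.5). The share of each tissue in the values of that library was not tested. VIPKO hypoxia 3 held thymus RNA, with 16126 over 7 thymus markers against 377 in the next library. Muscle is rich in glycolytic enzymes, and counts and medians of the set in contrasts with WT hypoxia are given with and without WT hypoxia 5. The lungs were profiled whole, so fewer cells of a type and less RNA per cell cannot be told apart.

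In WT lungs, hypoxia raised 21 of the 34 genes and lowered none past an adjusted p of 0.05 (limma on log2(signal + 1), Benjamini-Hochberg over all genes), while 7.88% of all genes tested were higher and 6.77% lower. The 21 were the glucose transporter Slc2a1, the hexokinase Hk2, Gpi1, Pfkl, Pfkfb4, Aldoa, Aldoc, Tpi1, Gapdh, Pgk1, Pgam1, Eno1, Pkm, Ldha, the lactate exporter Slc16a3, Pdk1, Bnip3, Bnip3l, Ndrg1, Ddit4 and Mxi1. Their log2 fold changes ran from 0.35 for Bnip3l to 1.55 for Aldoc. Over the whole set the median log2 fold change was 0.53 and 29 of 34 were above 0, beside a median of -0.01 over all genes tested. The 13 that missed the threshold were Hk1, Pfkm, Pfkp, Pfkfb3, Eno2, Higd1a, P4ha1, P4ha2, Egln3, Kdm3a, Car9, Car12 and Ankrd37. In VIPKO lungs, hypoxia raised 3 of the 34, Slc2a1, Ndrg1 and Ddit4, and lowered none, beside 0.614% of all genes higher and 0.383% lower. The median of the set was still 0.38 there, 27 of 34 were above 0, and 17 had an unadjusted p under 0.05, against 24 in WT. Over all 21658 genes tested, 2806 had an unadjusted p under 0.05 by limma in VIPKO and 7150 in WT. VIPKO hypoxia 3, the library with thymus RNA, was the highest VIPKO hypoxia library for 14 of the 34 genes. Without it the VIPKO median was 0.27 and 25 of 34 were above 0. The contrast in VIPKO had fewer normoxia libraries (4 against 6) and fewer calls over all genes (216 against 3173), and the difference between the genotypes is tested further below.

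**Figure D1:**
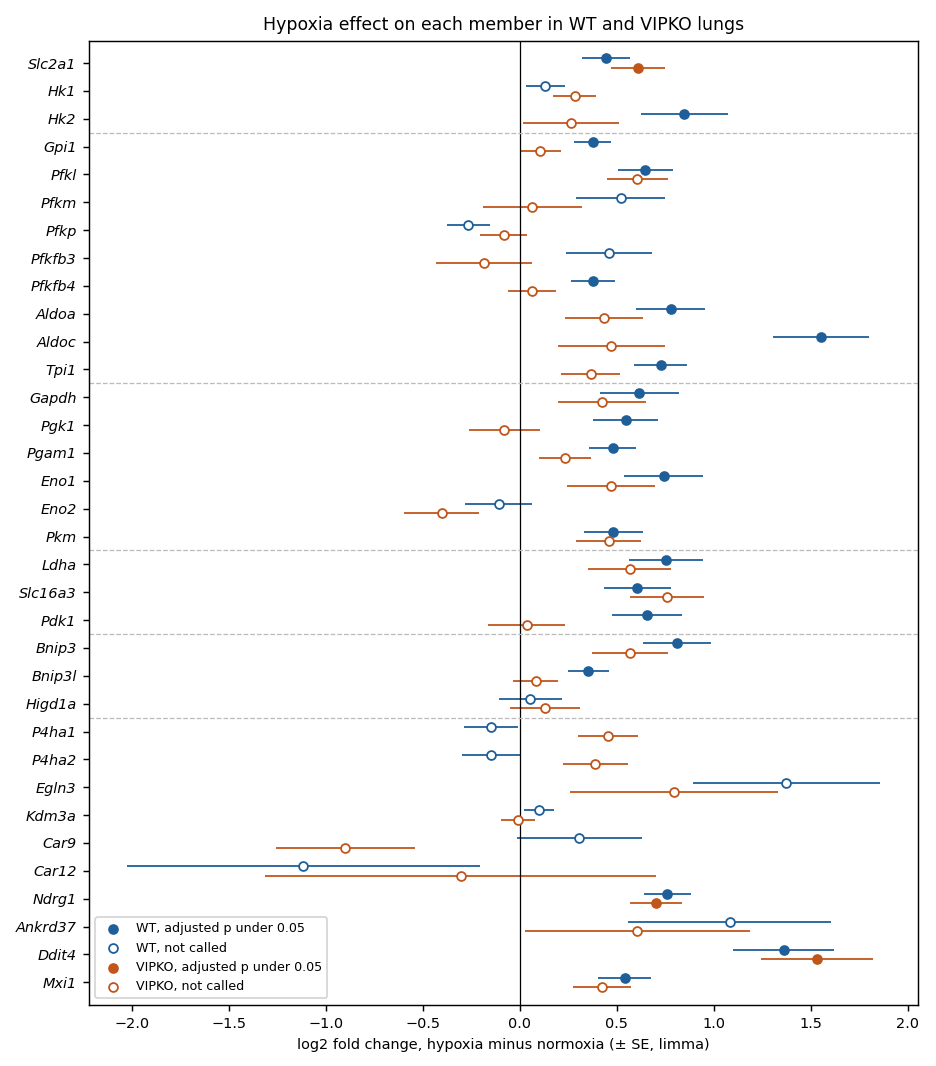
Log2 fold change of hypoxia against normoxia for each of the 34 genes (horizontal axis) in WT (blue) and VIPKO (orange) lungs, with bars of ± 1 SE from limma; filled points passed an adjusted p of 0.05. In WT 21 points are filled, all to the right of 0, and in VIPKO the 3 filled points are Slc2a1, Ndrg1 and Ddit4.

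Of the 3 genes for glucose uptake and phosphorylation, Slc2a1 and Hk2 rose in WT hypoxia, while Hk1 did not pass the test. Gene positions here are those of the GENCODE annotation on GRCm38, and values are the deposited normalized signal, listed in the order of the replicate numbers. Slc2a1 (chr4:119108711-119137983, + strand) encodes GLUT1, the carrier that brings glucose into most cells. Its signal was 456 to 543, with a median of 529, in the 6 WT normoxia libraries, and 716, 601, 682, 832 and 681 in WT hypoxia libraries 1 to 5. Every WT hypoxia library was above every WT normoxia library, a log2 fold change of 0.45 ± 0.13 (SE; limma adjusted p = 0.0247). The 4 VIPKO normoxia libraries gave 350.2, 444, 430.1 and 376, all below the WT normoxia range, and the 5 VIPKO hypoxia libraries gave 714, 508, 744, 701 and 436. Despite an overlap at the low end, the VIPKO rise of 0.61 ± 0.14 passed the test (limma adjusted p = 0.0369), and it was lost on leaving out any of 6 of the 9 VIPKO libraries or WT normoxia 4, with adjusted p between 0.0508 and 0.112. Hk2 (chr6:82725025-82774454, - strand), the inducible hexokinase that traps glucose as glucose 6-phosphate, ran from 398 to 656, with a median of 514, in WT normoxia, and was 883, 824, 848, 575 and 1972 in WT hypoxia. The last of these is WT hypoxia 5, and WT hypoxia 4 lay inside the normoxia range. Its rise was 0.85 ± 0.23 (limma adjusted p = 0.0194) with that library and 0.58 without it (limma adjusted p = 0.0418). In VIPKO the values were 668, 826, 596 and 723 in normoxia and 1292, 770.4, 891, 658 and 712 in hypoxia, which overlap. Hk1 (chr10:62268855-62379908, - strand), the hexokinase most tissues use at all times, ran from 1209 to 1777, with a median of 1627, in WT normoxia and was 1569.7, 1413, 1722, 1753 and 2154 in WT hypoxia. Its log2 fold change of 0.13 ± 0.10 was within the spread of the libraries (limma adjusted p = 0.37). In VIPKO, Hk1 gave 1488, 1514, 1403 and 1515 in normoxia and 1871, 1657, 1862, 1801 and 1819 in hypoxia, groups that did not overlap, but the difference of 0.28 ± 0.11 missed the threshold (limma adjusted p = 0.278). The ratio of Hk2 to Hk1 signal was 0.336 ± 0.0602 (SD, n = 6) in WT normoxia and 0.576 ± 0.214 (SD, n = 5) in WT hypoxia, and 0.474 ± 0.0521 (SD, n = 4) and 0.478 ± 0.128 (SD, n = 5) in the VIPKO groups. WT hypoxia 5 had the highest ratio of its group at 0.915, and WT hypoxia 4, at 0.328, lay inside the normoxia range. This ratio was not tested.

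Upper glycolysis turns glucose 6-phosphate into triose phosphates, and 6 of its 9 genes rose in WT hypoxia: Gpi1, Pfkl, Pfkfb4, Aldoa, Aldoc and Tpi1. Aldoc (chr11:78322968-78327781, + strand), the aldolase best known from brain, showed the largest rise of the called genes in the set. It was 41.0 to 75.5, with a median of 66.4, in WT normoxia and 236, 235, 208, 105 and 145 in WT hypoxia, so the groups did not overlap. The log2 fold change was 1.55 ± 0.25 (limma adjusted p = 0.00176). WT hypoxia 5, with its muscle RNA, was the second lowest of its group here, and the rise was 1.63 without it. In VIPKO lungs Aldoc was already at 97.5, 159.6, 91.8 and 159.5 in normoxia, above every WT normoxia library, and at 138, 119, 263, 209.7 and 162 in hypoxia; the latter step of 0.47 ± 0.27 missed the threshold (limma adjusted p = 0.477). Tpi1 (chr6:124810586-124814296, - strand), which interconverts the triose phosphates, ran from 833 to 1149.5, with a median of 1017, in WT normoxia and was 1689, 1389, 1591, 1442 and 2426 in WT hypoxia, again without overlap. The difference was 0.73 ± 0.14 (limma adjusted p = 0.00406). VIPKO values of Tpi1 were 1164, 1341, 1007 and 1363 in normoxia and 1400.3, 1345, 2046, 1659.6 and 1438 in hypoxia, touching at the edge, with a log2 fold change of 0.37 ± 0.15 (limma adjusted p = 0.306). Pfkl (chr10:77986947-78010083, - strand) is the liver-type phosphofructokinase, which catalyses the committed step of glycolysis. WT normoxia libraries ran from 657 to 971, with a median of 893, and WT hypoxia libraries were at 1361, 1164, 1270.0, 1077 and 2024, a rise of 0.65 ± 0.14 (limma adjusted p = 0.00903). A step of like size was seen in VIPKO, from 928, 921, 835 and 969 to 1161, 1255, 1849, 1532 and 1252, with no overlap, and its 0.61 ± 0.16 missed the threshold (limma adjusted p = 0.0761). It passed with WT hypoxia 5 left out of the shared fit (limma adjusted p = 0.0249) and with libraries weighted by quality (0.51, limma adjusted p = 0.0251). The other phosphofructokinase genes did not pass the test: the platelet-type Pfkp had a log2 fold change of -0.26 ± 0.11 in WT (limma adjusted p = 0.1) and the muscle-type Pfkm 0.52 ± 0.23 (limma adjusted p = 0.119), or 0.17 without WT hypoxia 5. The ratio of Pfkl to Pfkp signal moved from 0.651 ± 0.0826 (SD, n = 6) to 1.26 ± 0.322 (SD, n = 5) in WT and from 0.752 ± 0.167 (SD, n = 4) to 1.21 ± 0.233 (SD, n = 5) in VIPKO. WT hypoxia 5 had the highest ratio of its group at 1.68, and WT hypoxia 4, at 0.780, lay inside the normoxia range. The ratio was not tested. Aldoa, the aldolase of muscle and most other tissues, rose by 0.78 ± 0.18 in WT, and the smaller rises were 0.38 ± 0.10 for the isomerase Gpi1 and 0.38 ± 0.11 for Pfkfb4, a kinase that makes the activator fructose 2,6-bisphosphate.

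Lower glycolysis yields ATP and pyruvate, and 5 of its 6 genes, Gapdh, Pgk1, Pgam1, Eno1 and Pkm, rose in WT hypoxia; the neuronal enolase Eno2 did not pass (log2 fold change -0.11 ± 0.17). Pgam1 (chr19:41911923-41918660, + strand), phosphoglycerate mutase, ran from 742 to 1003, with a median of 928, in WT normoxia and was 1157, 1025, 1251, 1293 and 1736 in WT hypoxia, without overlap. The rise was 0.48 ± 0.12 (limma adjusted p = 0.0161). In VIPKO it was 1007, 1086, 929.8 and 1097 in normoxia and 1238, 973, 1530.3, 1215 and 1149.6 in hypoxia, which overlap, a difference of 0.23 ± 0.13 (limma adjusted p = 0.476). Eno1 (chr4:150236721-150248879, + strand), the common enolase, was 901 to 1138, with a median of 954, in WT normoxia and 1438, 1116, 1322, 1579.5 and 3428 in WT hypoxia. Only WT hypoxia 2 fell inside the normoxia range, and WT hypoxia 5 was the highest. The rise of 0.74 ± 0.20 (limma adjusted p = 0.0228) became 0.47 without WT hypoxia 5 (limma adjusted p = 0.041). VIPKO lungs gave 972, 1331, 1051 and 1034 in normoxia and 1768, 1314, 2106, 1337 and 1204 in hypoxia, and the difference of 0.47 ± 0.23 missed the threshold (limma adjusted p = 0.386). Pgk1 (chrX:106187100-106203699, + strand), phosphoglycerate kinase, the ATP-making step after Gapdh, was 310.0 to 419, with a median of 340.4, in WT normoxia and 536, 407, 482, 391 and 793 in WT hypoxia. These overlap, and the rise of 0.55 ± 0.17 (limma adjusted p = 0.034) was no longer called without WT hypoxia 5 (0.38, limma adjusted p = 0.0999). Gapdh and Pkm, with 0.62 ± 0.20 and 0.48 ± 0.15, also lost the call without that library (0.35 and 0.35). The Gapdh call was the least stable of the 21: its adjusted p was 0.0474 by limma, and it was lost in 21 of the 34 alternative settings, among them no filter on low values (0.0584), quantile normalization (0.081) and no variance trend (0.0675). Eno1, Pgk1 and Aldoa have near-identical copies in the table, and Gapdh is known for many pseudogenes, so how their reads were shared out is uncertain.

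The 3 genes on the fate of pyruvate and lactate all rose in WT hypoxia. Ldha (chr7:46841475-46855627, + strand), the lactate dehydrogenase subunit of anaerobic tissues, ran from 1213 to 2516, with a median of 1988, in WT normoxia. WT hypoxia libraries were at 3219, 2628, 2934, 2717 and 5314, all above normoxia, a rise of 0.76 ± 0.19 (limma adjusted p = 0.016). VIPKO libraries went from 2162, 2997, 1977 and 2998 in normoxia to 3368, 2991, 4955, 4065 and 3351 in hypoxia, meeting at the edge, and the 0.57 ± 0.21 missed the threshold (limma adjusted p = 0.251). The ratio of Ldha to Ldhb, the subunit of aerobic tissues, was 1.40 ± 0.344 (SD, n = 6) in WT normoxia and 1.69 ± 0.377 (SD, n = 5) in WT hypoxia. In VIPKO it was 1.66 ± 0.267 (SD, n = 4) in normoxia and 2.54 ± 0.332 (SD, n = 5) in hypoxia, where all 5 libraries lay above all 4 normoxia libraries; the ratio was not tested. Slc16a3 (chr11:120948480-120960868, + strand) encodes MCT4, which exports lactate. It was 247 to 333, with a median of 297, in WT normoxia and 469, 384, 439.9, 494 and 451 in WT hypoxia, without overlap, and the rise of 0.61 ± 0.17 (limma adjusted p = 0.0247) was 0.60 without the muscle library. In VIPKO the values were 261, 347, 281 and 268 in normoxia and a wide 748, 400.3, 675, 441 and 306 in hypoxia. The log2 fold change there was 0.76 ± 0.19 (limma adjusted p = 0.0595), and it passed on leaving out VIPKO hypoxia 2 or VIPKO hypoxia 5 (limma adjusted p = 0.0363 and 0.0097). Pdk1 (chr2:71873224-71903858, + strand), which blocks pyruvate dehydrogenase, was tight in WT normoxia at 611 to 681, with a median of 650.1, and every WT hypoxia library was above it, at 1126, 931, 1054, 758 and 1323. The rise was 0.66 ± 0.18 (limma adjusted p = 0.0221), or 0.56 without WT hypoxia 5 (limma adjusted p = 0.0607, not called). VIPKO libraries had 768, 662, 625 and 769.6 in normoxia and 506, 545, 1313, 799.9 and 674 in hypoxia, with a log2 fold change of 0.04 ± 0.20 (limma adjusted p = 0.961). The third VIPKO hypoxia value, 1313, is the library with thymus RNA, and the other 4 lay between 506 and 799.9.

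**Figure D2:**
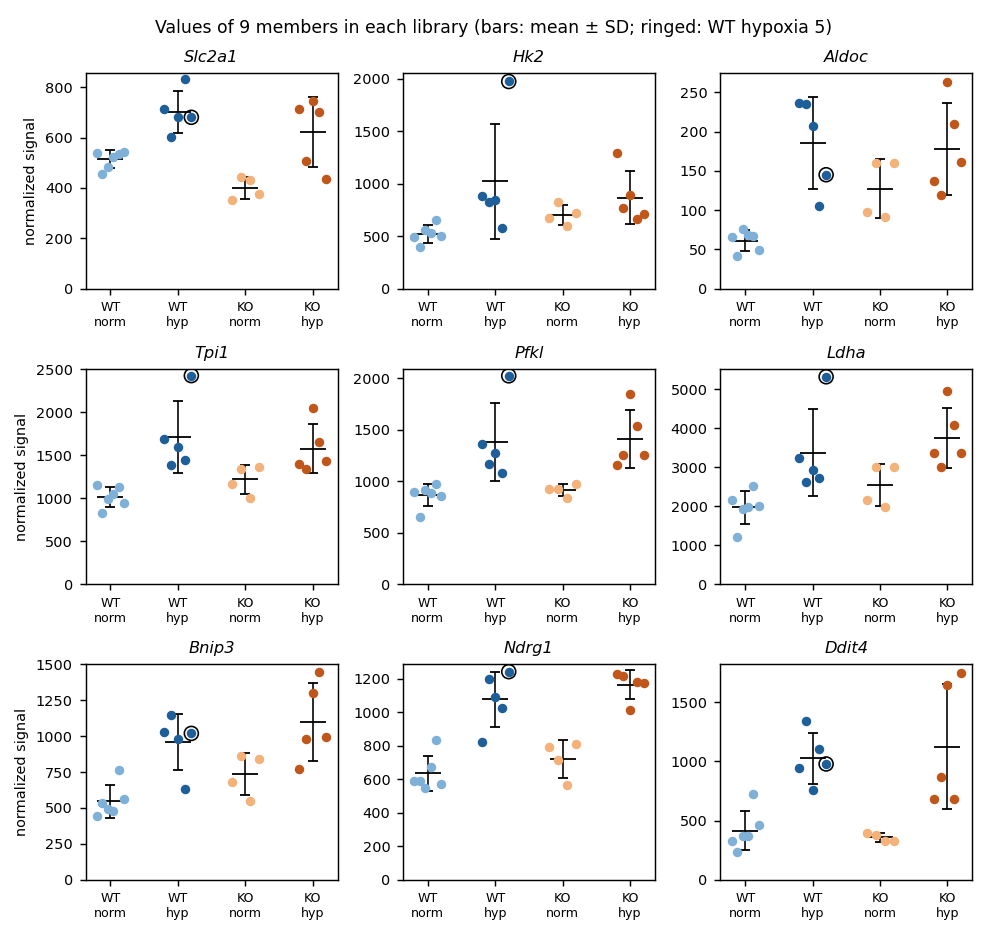
Deposited normalized signal (vertical axes, linear, from 0) of 9 genes of the set in each of the 20 libraries, by group, with bars of mean ± SD and WT hypoxia 5 ringed. Slc2a1, Aldoc, Tpi1, Pfkl, Ldha and Ddit4 show no overlap between WT normoxia and WT hypoxia, and WT hypoxia 5 is the highest library of its group for Hk2, Tpi1, Pfkl, Ldha and Ndrg1.

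Among the mitochondrial targets, the mitophagy receptors Bnip3 and Bnip3l rose in WT hypoxia and Higd1a, a small protein of the mitochondrial inner membrane, did not. Bnip3 (chr7:138890836-138909519, - strand) was 445 to 761, with a median of 513, in WT normoxia and 1028, 1149, 982, 632 and 1019 in WT hypoxia. Only WT hypoxia 4 overlapped the normoxia range, and the rise was 0.81 ± 0.18 (limma adjusted p = 0.00858), little changed at 0.78 without WT hypoxia 5. VIPKO values were 682, 862, 551 and 839 in normoxia, then 772, 980.4, 1302, 1449 and 995 in hypoxia, which overlap, with 0.57 ± 0.20 (limma adjusted p = 0.204). Bnip3l (chr14:66985239-67008877, - strand), the related receptor that also clears mitochondria from red cell precursors, was 1657 to 2363, with a median of 1859, in WT normoxia and 2564, 2739.9, 2672, 1956 and 2235 in WT hypoxia. Its rise of 0.35 ± 0.10 was the smallest of the 21 (limma adjusted p = 0.0301). VIPKO libraries held 2151, 2521, 2136 and 2938 in normoxia and 2407, 2389, 2582, 2726 and 2698 in hypoxia, a difference of 0.08 ± 0.12 (limma adjusted p = 0.8). Erythroid markers, 6 genes, summed to 438 to 81478 in WT normoxia and 15131 to 134510 in WT hypoxia; their part in the Bnip3l result was not tested. Higd1a (chr9:121848563-121858362, - strand) ran from 159 to 269, with a median of 172, in WT normoxia and was 219, 203, 128, 198 and 227 in WT hypoxia, 221, 214, 218 and 299 in VIPKO normoxia and 218, 219.8, 261, 317 and 289.7 in VIPKO hypoxia. All 4 groups overlapped, with log2 fold changes of 0.05 ± 0.16 in WT and 0.13 ± 0.18 in VIPKO.

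Of the 10 hydroxylases, carbonic anhydrases and other HIF targets, Ndrg1, Ddit4 and Mxi1 rose in WT hypoxia, and Ndrg1 and Ddit4 also in VIPKO. Ddit4 (chr10:59949669-59951834, - strand) encodes REDD1, a stress protein that restrains the growth kinase mTORC1. It was 238 to 724, with a median of 372, in WT normoxia and 944, 1345, 758, 1108 and 979 in WT hypoxia, without overlap. The rise was 1.36 ± 0.26 (limma adjusted p = 0.00456). In VIPKO it went without overlap from 392, 380.1, 331 and 325 to 686, 865, 1648, 684 and 1747, or 1.53 ± 0.29 (limma adjusted p = 0.00944). Ndrg1 (chr15:66929318-66969640, - strand), a stress-responsive protein of differentiating cells, was 549 to 835, with a median of 590.0, in WT normoxia. WT hypoxia gave 824, 1196, 1090.2, 1026 and 1242, where only WT hypoxia 1 overlapped normoxia, and a rise of 0.76 ± 0.12 (limma adjusted p = 0.00175). VIPKO lungs went from 789, 716, 566 and 810.3 to 1229, 1215, 1014, 1182 and 1176, without overlap, a rise of 0.70 ± 0.13 (limma adjusted p = 0.0108), which was lost on leaving out VIPKO normoxia 3 (0.59, limma adjusted p = 0.069). Mxi1 (chr19:53310518-53375810, + strand), an antagonist of MYC, was 592 to 799, with a median of 619, in WT normoxia and 1019.5, 1079.5, 917, 785 and 972 in WT hypoxia, overlapping through WT hypoxia 4. The rise was 0.54 ± 0.14 (limma adjusted p = 0.0156). VIPKO values of 738, 695, 577 and 768 in normoxia and 840.5, 645, 1079.6, 1243 and 936 in hypoxia overlapped, with 0.42 ± 0.15 (limma adjusted p = 0.225). None of the other 7 passed in either genotype. The collagen prolyl hydroxylases P4ha1 and P4ha2 had log2 fold changes of -0.15 ± 0.14 and -0.15 ± 0.15 in WT and 0.46 ± 0.15 and 0.39 ± 0.17 in VIPKO, where the groups did not overlap (limma adjusted p = 0.196 and 0.32). Egln3, an oxygen sensor that is itself a HIF target, had 1.38 ± 0.48 in WT (limma adjusted p = 0.0588), with 42.7, 60.9, 49.8, 31.1 and 354 in the 5 hypoxia libraries, and 0.78 without WT hypoxia 5. The pH-regulating carbonic anhydrases had low signal, with Car9 at group means of 18.3 to 32.1. In VIPKO, Car9 was lower in hypoxia, at -0.90 ± 0.36 (limma adjusted p = 0.288, not called). Its groups there just failed to overlap, at 29.052 or less in hypoxia and 29.055 or more in normoxia. Car12 was near the detection limit. It read 2.37, 5.08, 5.53, 0 and 309.6 in WT hypoxia, where a count of 0 allows 2.38 to 11.7 depending on the library. Kdm3a, a histone demethylase, moved by 0.10 ± 0.08 in WT. Ankrd37 had group means of 29.8 in WT normoxia and 63.7 in WT hypoxia, which did not overlap, and its 1.08 ± 0.52 missed the threshold (limma adjusted p = 0.154).

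WT hypoxia 5 was the highest WT hypoxia library for 20 of the 34 genes. Without it, 16 of the 34 were higher in WT hypoxia and 1, Car12, lower, beside 5.16% and 3.95% of all genes, and the median log2 fold change of the set went from 0.53 to 0.38. Pfkfb4, Gapdh, Pgk1, Pkm and Pdk1 lost the call, with log2 fold changes of 0.36, 0.35, 0.38, 0.35 and 0.56. The Car12 value of -2.42 (limma adjusted p = 0.0128) rests on 4 hypoxia libraries at or under 5.53. The count in WT also fell, to 13, on leaving out WT hypoxia 1 or WT hypoxia 3, and reached 24 without WT hypoxia 4, the shallowest library (23 higher and Pfkp lower). Hk2, Pfkl, Aldoa, Aldoc, Tpi1, Pgam1, Ldha, Bnip3, Ndrg1 and Ddit4 passed under each of the 34 alternative settings tried. In VIPKO the count was 4 without WT hypoxia 5, Pfkl being added, beside 0.611% of all genes higher and 0.37% lower. It was 2 without the library labelled VIPKO hypoxia 4, where Slc2a1 was not called. Leaving out VIPKO normoxia 3 left Ddit4 alone (1), and leaving out VIPKO hypoxia 2 gave 5 with Slc16a3 and Mxi1. The counts on leaving out libraries other than WT hypoxia 5 are given without the share of all genes called in those fits.

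**Figure D3:**
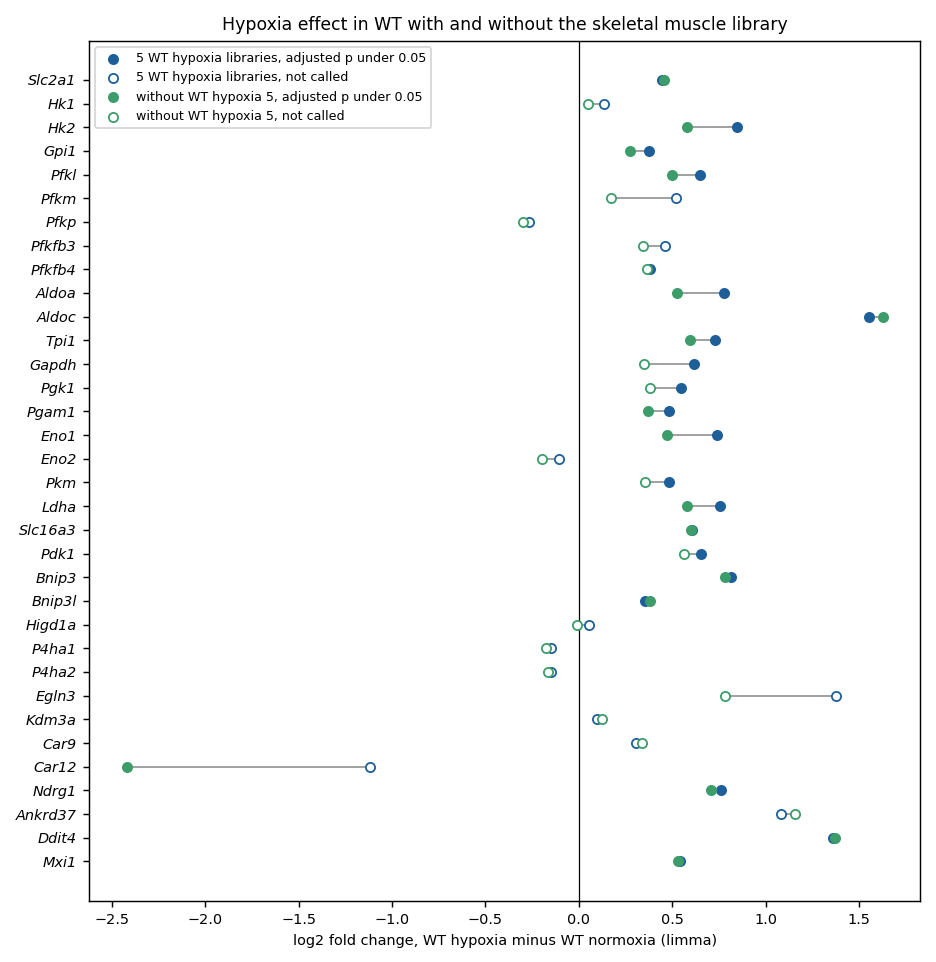
Log2 fold change of WT hypoxia against WT normoxia (horizontal axis) for each gene with all 5 WT hypoxia libraries (blue) and without WT hypoxia 5 (green); filled points passed an adjusted p of 0.05. Hk2, Pfkm, Aldoa, Gapdh, Eno1 and Egln3 moved left without the muscle library, while Slc2a1, Aldoc, Slc16a3, Bnip3, Ndrg1 and Ddit4 changed little.

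Between genotypes in normoxia, VIPKO lungs had more Aldoc and Pgk1 and no gene of the set lower, 2 of 34 beside 4.69% of all genes higher and 3.96% lower. The median of the set was 0.15 and 25 of 34 were above 0. By limma, 6 had an unadjusted p under 0.05, a lower share than the 5473 of all 21658 genes tested. The Aldoc values given above differ by 1.03 ± 0.26 (limma adjusted p = 0.022), with group means of 61.05 ± 13.2 (SD, n = 6) in WT and 127 ± 37.5 (SD, n = 4) in VIPKO. For Pgk1, VIPKO normoxia gave 370.4, 661, 560.0 and 569, of which the first lay inside the WT range, and the difference was 0.61 ± 0.18 (limma adjusted p = 0.0368). VIPKO hypoxia libraries 1 to 4 gave 505, 613, 503 and 502 for Pgk1, and library 5 was the lowest of that group. Both calls were lost on leaving out VIPKO normoxia 2 or VIPKO normoxia 4, and the Pgk1 call alone without VIPKO normoxia 3 or any of WT normoxia 1, 2, 3, 4 and 6. Slc2a1 was lower in all 4 VIPKO normoxia libraries than in all 6 of WT, at -0.36 ± 0.13 (limma adjusted p = 0.0948, not called), and Bnip3l was at 0.35 ± 0.11 (limma adjusted p = 0.0519). Ankrd37 was higher in all 4 than in all 6 of WT, at 1.25 ± 0.56 (limma adjusted p = 0.167, not called). Cell type markers also differed in this contrast. Airway markers were higher in VIPKO normoxia for 6 of 8 and summed to 147390 to 206180 in WT and 242190 to 429880 in VIPKO. Alveolar macrophage markers were higher for 4 of 6 (3771 to 7410.4 and 7303 to 76442), adipocyte markers for 2 of 8 (1750 to 2566 and 2125 to 3923), and capillary markers were lower for 2 of 9 (53548 to 67035 and 43675 to 49973). The median log2 fold change over the 8 adipocyte markers was 2.285. Of the alveolar type 2 markers 1 of 7 and of the neutrophil markers 1 of 8 were higher. The part of these cell types in the differences was not tested.

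Pgk1 has the closely related retrogene Pgk1-rs7, and Eno1 has Eno1b, and the table lists both of each pair. Summed signal of Pgk1 and Pgk1-rs7 in WT was 650.0 ± 68.1 (SD, n = 6) in normoxia and 960.0 ± 325 (SD, n = 5) in hypoxia. The VIPKO sums were 898 ± 173 (SD, n = 4) and 942 ± 116 (SD, n = 5). With the copies summed, Pgk1 still rose in WT hypoxia (0.51, limma adjusted p = 0.0408) but was no longer called between genotypes in normoxia (0.45, limma adjusted p = 0.105). The rise of Eno1 in WT hypoxia was 0.77 with Eno1b added (limma adjusted p = 0.0227), and that of Aldoa was 0.77 with its second line and Aldoart1 added (limma adjusted p = 0.0116). VIPKO normoxia 2, VIPKO normoxia 3 and VIPKO hypoxia 2 had the lowest Eno1b values of their groups, and without these 3 libraries no gene of the set was called in VIPKO hypoxia or between genotypes in normoxia. That fit kept only VIPKO normoxia 1 and 4 of their group. The lost calls therefore cannot be tied to the copies.

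**Figure D4:**
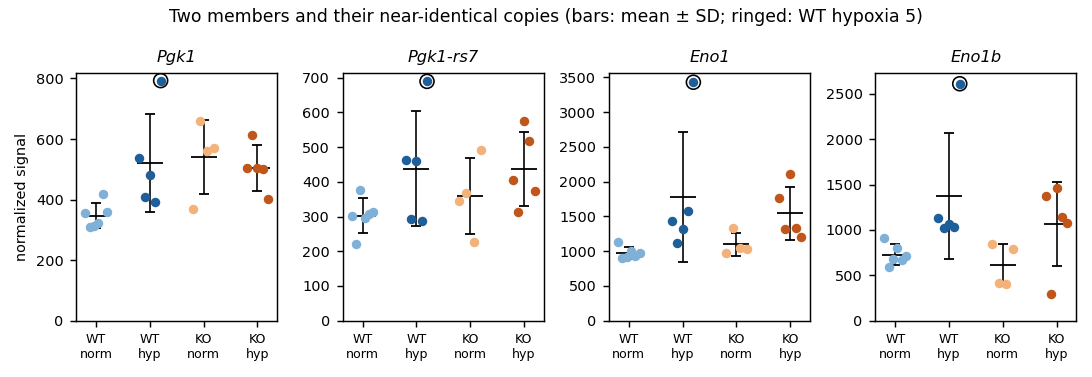
Deposited normalized signal (vertical axes, linear, from 0) of Pgk1, its retrogene Pgk1-rs7, Eno1 and its copy Eno1b in the 20 libraries, by group, with bars of mean ± SD and WT hypoxia 5 ringed. For Pgk1, 3 of the 4 VIPKO normoxia libraries lie above all WT normoxia libraries, and Eno1b splits the VIPKO normoxia libraries into a higher and a lower pair.

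In hypoxia, none of the 34 genes passed the test between genotypes, beside 0.716% of all genes higher and 0.9% lower in VIPKO, and the median log2 fold change of the set was -0.02 with 15 of 34 above 0. The sign of that median turned on single libraries: it was 0.12, with 24 of 34 above 0, without WT hypoxia 5, and 0.02, with 18 above 0, without VIPKO hypoxia 2. No member was called without either of them. By limma, 4 had an unadjusted p under 0.05, a lower share than the 4080 of all 21658 genes tested. They were P4ha1 (0.44 ± 0.15), P4ha2 (0.42 ± 0.16), Higd1a (0.43 ± 0.17) and Pdk1 (-0.50 ± 0.19). Each of these 4 genes had overlapping groups. Without VIPKO hypoxia 3, the thymus library, Pdk1 was lower in VIPKO at -0.72 (limma adjusted p = 0.00824).

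The test of whether hypoxia acted differently in the genotypes, the interaction, called none of the 34, beside 0.134% of all genes higher and 0.148% lower. Its median over the set was -0.24 and 9 of 34 were above 0, beside a median of 0.01 over all genes. Without WT hypoxia 5 the median was -0.10 and 13 of 34 were above 0, again with no call. Ldha then went from -0.19 to -0.01 and Gapdh from -0.19 to 0.07. With all libraries, 6 had an unadjusted p under 0.05 by limma, beside 3082 of all 21658 genes tested. Aldoc was at -1.08 ± 0.37 (limma adjusted p = 0.187), Pgk1 at -0.62 ± 0.25, Pdk1 at -0.62 ± 0.27 and Car9 at -1.21 ± 0.48. P4ha1 and P4ha2 went the other way, at 0.60 ± 0.21 and 0.54 ± 0.22. Ddit4 (0.17 ± 0.39), Ndrg1 (-0.06 ± 0.18) and Pfkl (-0.04 ± 0.21) had interactions smaller than their SE. The interaction was called for Pdk1 on leaving out VIPKO hypoxia 3 (-0.83, limma adjusted p = 0.0386), and for 5 genes, 1 higher and 4 lower, when libraries were weighted by quality. The share of all genes called in those fits is not given here. WT normoxia serves both the WT hypoxia contrast and the normoxia genotype contrast, so the Aldoc and Pgk1 rises in those share controls and are not independent.

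Per kilobase of merged exons, the levels of the set spanned a wide range in WT normoxia. Aldoa led at 1876 ± 188 signal per kilobase (SD, n = 6), followed by Pkm at 966 ± 185, Ldha at 594 ± 129, Bnip3l at 493 ± 64.6 and Pgam1 at 462 ± 49.1. Ldha, Bnip3l and Pgam1 are neighbours that lie within their spread of each other. Aldoc was at 18.7 ± 4.04, so the aldolase with the largest fold change gave 0.0111 ± 0.00145 of the Aldoa signal before length correction (SD, n = 6), and 0.0214 ± 0.00988 in WT hypoxia (SD, n = 5). WT hypoxia 5, with its muscle RNA, had the lowest Aldoc to Aldoa ratio of that group, at 0.00778. At the low end were Egln3 at 10.1 ± 3.33 and Car12 at 2.33 ± 0.613.

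Genes of the surrounding pathways were called to differing extents in WT hypoxia, and the lists were not tested for enrichment. Of 16 tricarboxylic acid cycle genes, 10 were higher and none lower, with Sdhd of succinate dehydrogenase at 0.77 ± 0.16 (limma adjusted p = 0.00768) and malate dehydrogenase Mdh2 at 0.63 ± 0.14 (limma adjusted p = 0.01). Pyruvate dehydrogenase and gluconeogenesis had 9 of 16 higher, led by pyruvate carboxylase Pcx at 1.09 ± 0.19 and the pyruvate carrier Mpc1 at 0.81 ± 0.17. The pentose phosphate pathway had 4 of 7 higher, among them Taldo1 (0.75 ± 0.16) and Tkt (0.90 ± 0.20), which belong to its sugar-shuffling branch. Glycogen metabolism had 5 of 11 higher, with the phosphorylase Pygl at 0.91 ± 0.19 and lysosomal Gaa at 0.32 ± 0.07, and other glycolytic isoforms had 6 of 19, with Pgm1 at 0.74 ± 0.13. The lists were drawn up with earlier results of these data known. Other HIF targets were mixed, with 5 of 26 higher and 2 lower: the transcription factor Bhlhe40 rose by 0.90 ± 0.19 (limma adjusted p = 0.0075), while the angiogenic factor Vegfa was at -0.37 ± 0.09 (limma adjusted p = 0.0156). None of the 9 HIF subunits and oxygen sensors passed by limma, with 2 at an unadjusted p under 0.05, beside 7150 of all 21658 genes tested. Without WT hypoxia 5, the counts higher were 7 of 16 for the tricarboxylic acid cycle, 5 of 16 for pyruvate dehydrogenase and gluconeogenesis, 4 of 7 for the pentose phosphate pathway, 3 of 11 for glycogen, 4 of 19 for other isoforms and 2 of 26 for other HIF targets, with 2 lower, beside 5.16% of all genes higher and 3.95% lower. In VIPKO hypoxia, only other HIF targets had calls among these lists, 2 of 26 higher.

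**Figure D5:**
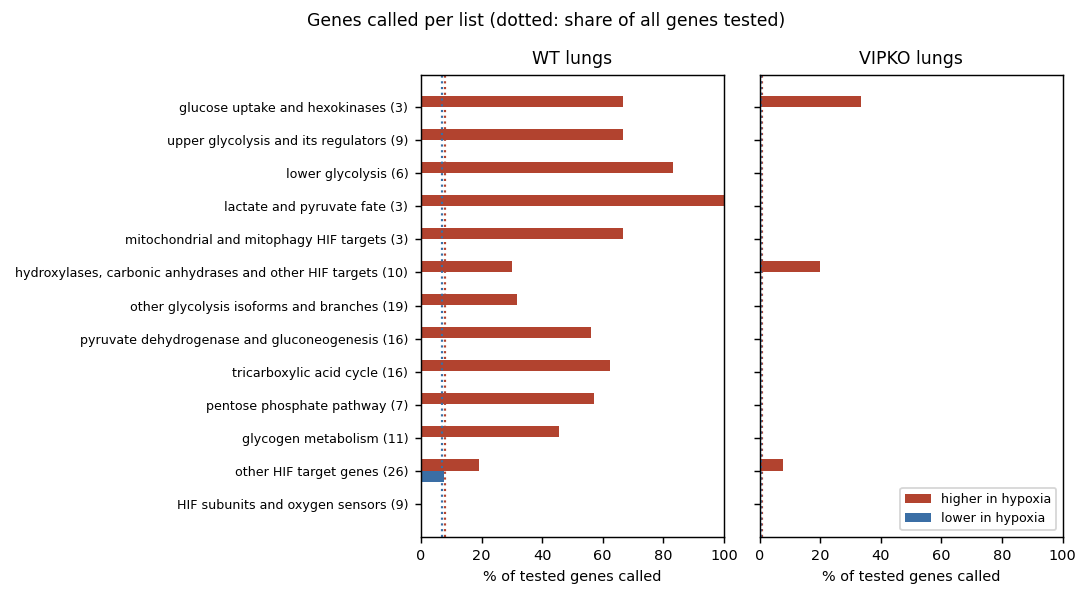
Percent of tested genes called higher (red) or lower (blue) in hypoxia (horizontal axes) for each list of genes in WT (left) and VIPKO (right), with the number tested in brackets; the dotted lines are the share of all genes tested. In WT every list but the HIF subunits lies above the dotted line for higher genes, and in VIPKO 3 lists have any call.

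Cell type markers moved in the same contrast. In WT hypoxia all 8 adipocyte markers were higher, with a median log2 fold change of 4.01. Their summed signal was 1750 to 2566 in WT normoxia and 3922 to 20499 in WT hypoxia. Alveolar type 2 markers were higher for 6 of 7 and summed to 172220 to 342590 in normoxia and 295070 to 489840 in hypoxia, and airway markers were higher for 4 of 8. Alveolar macrophage markers were higher for 3 of 6, with and without WT hypoxia 5, and summed to 3771 to 7410.4 in normoxia and 9337 to 20450 in hypoxia, without overlap. Among 9 capillary markers 4 were lower and 1 higher, and 4 of 5 B cell markers were lower. None of the 10 skeletal muscle markers tested was called in WT, and without WT hypoxia 5 the summed signal of all 15 ranged no higher than 1361 in any library. The adipocyte calls did not rest on that library, since 7 of 7 markers tested without it were higher, with a median of 4.32. In VIPKO lungs, hypoxia lowered 4 of 5 B cell markers and 2 of 9 capillary markers. Between genotypes in hypoxia, 3 of 8 neutrophil and 1 of 6 proliferation markers were higher in VIPKO, and 1 of 9 capillary markers was lower. The part of these cell types in the changes of the glycolytic and HIF target genes was not tested.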

How the data were processed

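Total RNA of whole lung was made into strand-marking libraries with NEBNext Ultra II Directional, per the labels' protocols. The deposited table holds normalized gene counts (a signal, not raw counts) that the authors made with Partek on mm10, per the submitters' processing notes; aligner, annotation, counting strand and scaling: not given in the sources used here. Depth was estimated as total signal divided by the most frequent signal above 0, taken as the step that a read adds. In 19 libraries most low values were whole multiples of that step, but not in VIPKO hypoxia 2, so no count model was used. Where a count of 0 is given a limit, 3 reads were used, which speaks to counting error alone.

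Of 30746 lines, 55 named no gene (at most 0.01868% of signal) and were left out. The filter asked for a signal of 10 or more in 4 or more libraries and left 21658 genes. log2(signal + 1) was fitted with limma 3.58.1 (R 4.3.3; trend on, 4 group means, 20 libraries), with Benjamini-Hochberg adjustment over all genes, a threshold of 0.05 and 5 contrasts. Fold changes on this scale understate those of low genes. The fit was tested on simulated data. Tables were made with pandas 2.3.3 and numpy 2.4.6 in Python 3.11.15, and plots with matplotlib 3.10.9.

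The 34 genes, the lists and the alternatives were chosen with earlier results of these data known. Up to 3 genes per role, by smallest adjusted p in any contrast, and up to 2 called genes per pathway list, by smallest p in WT hypoxia, were named with full values. A gene that this rule names is not reported here. Other members are given by fold change. Alternatives covered the pseudocount, filter, scaling, variance trend, library weights, replicate block, length and GC content, the groups fitted and leaving out libraries.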

Additional observations from a re-analysis of the deposited data

Results flagged for a closer look

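In 16 of the 136 gene and group pairs looked at, 1 library lay far from the rest of its group by Dixon's criterion, which chance alone meets in about 1 in 20 groups. Of these, 10 were WT hypoxia 5, the library with skeletal muscle RNA, always as the highest of its group. The signals there were 18654 for Aldoa, 9456.9 for Pkm, 5313.5 for Ldha, 3428.1 for Eno1, 2426.2 for Tpi1, 2150.4 for Gapdh, 1971.5 for Hk2, 1359.2 for Pfkm, 354.09 for Egln3 and 309.55 for Car12. WT normoxia 5 stood apart at 761.05 for Bnip3 and 2137.3 for P4ha1. Higd1a stood apart in WT normoxia 2 at 268.65 and in VIPKO normoxia 4 at 298.68. P4ha2 did so in WT hypoxia 4 at 524.78, and Ndrg1 in VIPKO hypoxia 3, the library with thymus RNA, at 1014.1.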

How the results depend on the processing

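The signs of the called genes were stable: over 26 gene results and 884 fits, 779 kept the call, 105 lost it and 0 turned direction. Counts of called genes moved more. Leaving out 1 library at a time gave 13 to 24 of the 34 for hypoxia in WT (21 with all libraries), 1 to 5 for hypoxia in VIPKO (3), 0 to 3 for VIPKO against WT in normoxia (2), 0 to 1 for VIPKO against WT in hypoxia (0) and 0 to 1 for the interaction (0). Library quality weights gave 5 for hypoxia in VIPKO, 5 for genotype in normoxia, 2 for genotype in hypoxia and 5 for the interaction. For genotype in normoxia the count was 1 with no variance trend, 0 with the length and GC content trend removed, 4 when only the groups compared were fitted and 1 with near-identical copies summed, an alternative chosen after seeing the data. Leaving out the muscle and thymus libraries gave 1, Pdk1, for genotype in hypoxia and 1, Pdk1, for the interaction. Leaving out VIPKO normoxia 2 and 3 and VIPKO hypoxia 2 gave 0 for hypoxia in VIPKO and 0 for genotype in normoxia. Only VIPKO normoxia 1 and 4 were left of their group in that fit. Counts under these alternatives are given here without the share of all genes called in the same setting. They do not show whether the moves were particular to the set. The cause of the moves was not tested.

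Same-numbered libraries did not consistently deviate together, with correlations of both signs, -0.29 to 0.41, between their deviations. The highest, 0.41, was between VIPKO normoxia 2 and VIPKO hypoxia 2. The numbers were not taken to pair the samples. With the replicate number as a block, 12 genes were called for hypoxia in WT, 2 for hypoxia in VIPKO and 0 for genotype in normoxia. These counts too are given without the share over all genes. Depth limits the low genes: a count of 0 allows a signal of up to 1.03 in the deepest library and 11.7 in the shallowest, which covers Car12 in WT hypoxia 4.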
